A study of Homo sapiens with 4 samples.

Results

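Genes of cholesterol synthesis, of its control by sterol regulatory element-binding proteins (SREBPs) and of the liver X receptor (LXR) response were compared between ornithogalum-treated and vehicle-treated AGS cells. AGS is an established line from a human gastric adenocarcinoma. The 34 genes were listed by function: 17 enzymes of synthesis, 6 genes of SREBP control and 11 LXR receptors and lipid targets. Of these, 31 had a transcript cluster (a set of array probes covering 1 transcript locus) annotated to that gene alone, out of 18417 genes that had one. FDFT1, HSD17B7 and NR1H2 had no such cluster in the annotation used here and are not analysed as genes. The brightest cluster stood for each gene.

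Each of the 2 groups had 2 arrays of total RNA (Affymetrix Human Gene 1.0 ST). Ornithogalum cells received the homeopathic formulation at 0.01% for 36 h, and vehicle cells received ethanol for the same time. Both groups were the same unmodified line, grown in serum-containing medium and treated near confluence. No source used here gives the ethanol concentration. The labels call the arrays biological replicates but name no separate cultures, and the p-values thus measure only the spread between these samples. In RNA from a whole culture, a change in every cell and a change in a share of the cells cannot be told apart.

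Cells make cholesterol from acetyl-CoA through mevalonate, isoprenoid units, squalene and lanosterol. When sterol in the endoplasmic reticulum runs low, SCAP escorts SREBP to the Golgi, where proteases release the part that activates synthesis and uptake genes. INSIG proteins hold the SCAP-SREBP complex back when sterol is plentiful. LXRs, in contrast, are nuclear receptors that bind oxysterols and induce genes of sterol export, of reduced uptake and of fatty acid synthesis.

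The measured values are log2 expression values per array, and each difference is ornithogalum minus vehicle on that scale. "Rose", "fell", "higher" and "lower" are used of genes with a Benjamini-Hochberg adjusted p under 0.05 by limma, fitted over all 21214 named clusters. Of the 31 measured genes, 6 rose and 3 fell, and 22 did not pass. The background was 19.2% of all tested clusters called, 6.57% higher and 12.6% lower, against 29.0% of these genes. That background includes dim clusters. In a fit of only the 10607 clusters above the median brightness, limma called 4832, and 11 of the 24 listed genes among them. At an unadjusted limma p under 0.05 there were 7160 of all 21214 clusters and 15 of the 31 genes. The median difference was -0.02 over the 31 genes and 0.04 over all tested clusters. In 21 of the 31 the groups did not overlap, where 62.2% of all clusters did not overlap.

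Those that rose were the synthesis enzymes IDI1 and SC5D, the SREBP brake INSIG1, the sterol carrier STARD4 and the LXR targets ABCA1 and MYLIP. Those that fell were the synthesis enzymes SQLE, NSDHL and DHCR7. MYLIP had the largest change, 3.32-fold, and the other 8 ranged from 1.53-fold to 1.81-fold in size.

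**Figure D1:**
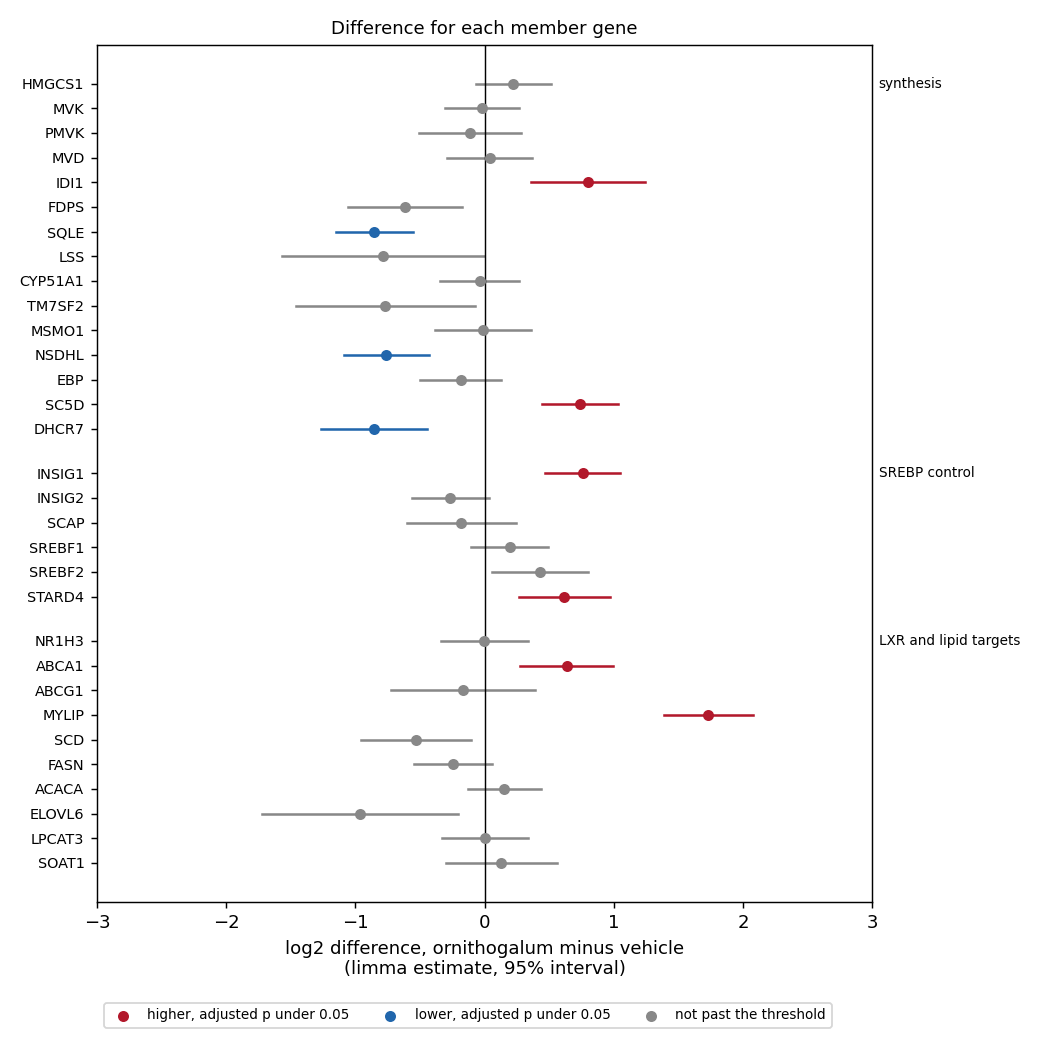
Difference between groups for the 31 measured genes (log2, ornithogalum minus vehicle, point and 95% interval from limma), in pathway order and in 3 groups. The 6 red genes were higher, the 3 blue genes were lower, and the 22 grey genes did not pass an adjusted p of 0.05.

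The upstream sequences of the called genes with a single RefSeq promoter window, and of SREBF2, are shown because SREBPs act with the factors NF-Y and Sp1 at such promoters and LXRs bind direct repeats. Each runs 5′ to 3′ over the 250 bases before the annotated start (RefSeq, GRCh38.p14). Capitals mark every match, on either strand, to the sterol regulatory element core TCACNCCAC, the CCAAT box, the GC box GGGCGG, the E-box CACGTG and an LXR-type direct repeat (2 copies of AGGTCA, 4 bases apart, with at most 1 mismatch in each). GC boxes can overlap each other, as can CCAAT boxes.
INSIG1, chr7:155297628-155297877, plus strand: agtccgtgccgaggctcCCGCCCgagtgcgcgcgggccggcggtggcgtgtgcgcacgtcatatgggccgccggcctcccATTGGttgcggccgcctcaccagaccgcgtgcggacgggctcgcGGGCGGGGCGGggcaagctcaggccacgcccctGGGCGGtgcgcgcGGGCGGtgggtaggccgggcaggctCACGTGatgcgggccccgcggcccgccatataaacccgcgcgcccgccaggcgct
STARD4, chr5:111512536-111512785, minus strand: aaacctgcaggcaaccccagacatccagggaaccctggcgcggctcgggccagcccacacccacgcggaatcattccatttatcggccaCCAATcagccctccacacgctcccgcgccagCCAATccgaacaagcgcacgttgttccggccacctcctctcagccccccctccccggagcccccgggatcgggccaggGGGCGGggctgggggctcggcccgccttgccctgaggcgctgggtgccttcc
ABCA1, chr9:104928156-104928405, minus strand: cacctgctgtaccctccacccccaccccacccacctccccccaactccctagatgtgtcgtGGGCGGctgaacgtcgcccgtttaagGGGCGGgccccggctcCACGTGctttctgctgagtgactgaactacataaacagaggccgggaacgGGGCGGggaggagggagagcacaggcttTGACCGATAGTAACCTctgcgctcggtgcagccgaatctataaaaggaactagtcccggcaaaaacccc
MYLIP, chr6:16128836-16129085, plus strand: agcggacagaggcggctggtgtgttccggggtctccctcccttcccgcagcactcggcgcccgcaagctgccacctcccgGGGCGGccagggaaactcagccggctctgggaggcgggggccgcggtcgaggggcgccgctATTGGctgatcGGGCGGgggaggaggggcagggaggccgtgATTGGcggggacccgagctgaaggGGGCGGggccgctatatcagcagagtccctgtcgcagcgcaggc
NSDHL, chrX:152830813-152831062, plus strand: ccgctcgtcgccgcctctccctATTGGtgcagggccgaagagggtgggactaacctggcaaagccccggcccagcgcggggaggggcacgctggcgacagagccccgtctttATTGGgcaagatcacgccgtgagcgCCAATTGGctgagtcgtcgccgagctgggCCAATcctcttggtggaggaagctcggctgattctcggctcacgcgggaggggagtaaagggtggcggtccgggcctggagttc
SREBF2, chr22:41832855-41833104, plus strand: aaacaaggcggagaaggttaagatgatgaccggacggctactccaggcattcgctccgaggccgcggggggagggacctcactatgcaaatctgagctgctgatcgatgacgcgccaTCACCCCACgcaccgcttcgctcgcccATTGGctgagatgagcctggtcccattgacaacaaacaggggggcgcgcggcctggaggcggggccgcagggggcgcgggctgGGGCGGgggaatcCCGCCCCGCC

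Over the whole windows (250 bases before to 50 after the start), 28 of the measured genes had 39 windows. The CCAAT box was in 24 of these (61.5%) and in 34.6% of all 35116 windows, and the GC box in 34 (87.2%) and in 45.0%. Only SREBF2 held the sterol element core among these genes, beginning at -133, and 1.13% of all windows held it. The direct repeat was found in the ABCA1 window alone, beginning at -69 on the minus strand, and in 1.38% of all windows. E-boxes lay in 6 windows of 5 genes (15.4% of windows, against 7.26% of all), among them INSIG1 at -55 and ABCA1 at -147. Windows of the same gene can overlap, so that a site counts more than once, as the E-box of SC5D does. Of the genes shown, NSDHL had 5 CCAAT boxes and no GC box, while ABCA1 had 3 GC boxes and no CCAAT box. These matches describe letters in a window and were not tested against the expression values.

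Among the 15 measured synthesis enzymes, 2 rose and 3 fell (33.3% called, against 19.2% of all tested clusters), with a median difference of -0.11. Unadjusted limma p was under 0.05 for 2 higher and 6 lower enzymes, against 3004 and 4156 of all 21214 clusters. Of the 6 listed enzymes from HMGCS1 to FDPS, only IDI1 passed. It is the isomerase that interconverts the isoprenoid building blocks. IDI1 (cluster 7931754) read 7.63 and 7.84 with ornithogalum and 7.12 and 6.75 with vehicle. All ornithogalum values lay above all vehicle values, and the vehicle arrays were further apart than the treated ones. The rise was 1.74-fold (log2 difference 0.80, SE 0.17, limma adjusted p = 0.035).

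FDPS, which makes farnesyl diphosphate in the step after IDI1, read 5.94 and 5.64 with ornithogalum and 6.26 and 6.56 with vehicle. Its groups did not overlap, but the difference of -0.62 (95% interval -1.06 to -0.18) had a limma adjusted p of 0.069. The other 4 enzymes of this stretch had small differences. HMGCS1, a synthase and the first listed enzyme of the pathway, differed by 0.22 (95% interval -0.07 to 0.51). The kinases MVK and PMVK and the decarboxylase MVD lay between -0.11 and 0.04, with overlapping groups. The signs of MVK, PMVK and MVD turned under some scalings or with an array left out, so they carry no direction.

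At the squalene and lanosterol steps, SQLE fell. SQLE, the squalene epoxidase and a rate-limiting enzyme of the later pathway, read 6.74 and 6.77 with ornithogalum and 7.67 and 7.54 with vehicle. Both pairs were tight and far apart, at 6.75 ± 0.023 against 7.61 ± 0.091 (SD, n = 2 per group). The fall was 1.81-fold (log2 difference -0.86, SE 0.12, limma adjusted p = 0.010).

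LSS, the lanosterol synthase that follows SQLE, read 4.36 and 5.27 with ornithogalum and 5.56 and 5.65 with vehicle. Both treated values were the lower ones, yet the first ornithogalum array was 0.91 below the second. With that spread the difference of -0.79 (95% interval -1.57 to -0.0013) had a limma adjusted p of 0.15.

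After lanosterol, 1 of 7 measured enzymes rose and 2 fell (42.9% called, against 19.2% of all tested clusters). SC5D, the desaturase that introduces a ring double bond near the end of the pathway, read 8.29 and 8.17 with ornithogalum and 7.49 and 7.48 with vehicle. It rose 1.67-fold (log2 difference 0.74, SE 0.12, limma adjusted p = 0.014), with no overlap between groups. DHCR7, the reductase that works on the product of SC5D, went the other way. DHCR7 read 6.19 and 5.85 with ornithogalum and 6.79 and 6.96 with vehicle. It fell 1.81-fold (log2 difference -0.85, SE 0.16, limma adjusted p = 0.024). Thus the last 2 listed enzymes of the pathway were called in opposite directions.

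NSDHL, the dehydrogenase that takes part in removing methyl groups from lanosterol, read 5.98 and 5.86 with ornithogalum and 6.59 and 6.77 with vehicle. All treated values lay below all vehicle values. The fall was 1.69-fold (log2 difference -0.76, SE 0.13, limma adjusted p = 0.018).

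TM7SF2, a sterol reductase, resembled LSS in its spread. It read 4.50 and 5.25 with ornithogalum and 5.76 and 5.53 with vehicle, a difference of -0.77 (95% interval -1.46 to -0.08) with a limma adjusted p of 0.12. CYP51A1, the lanosterol demethylase, differed by -0.04 (95% interval -0.34 to 0.27). Its vehicle arrays held exactly the same deposited value, with no tolerance, which rounds to 6.30, and 99 of the tested clusters had such an exact match. MSMO1, which oxidises the methyl groups, differed by -0.02 (95% interval -0.39 to 0.36), and the isomerase EBP by -0.19 (95% interval -0.50 to 0.13).

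**Figure D2:**
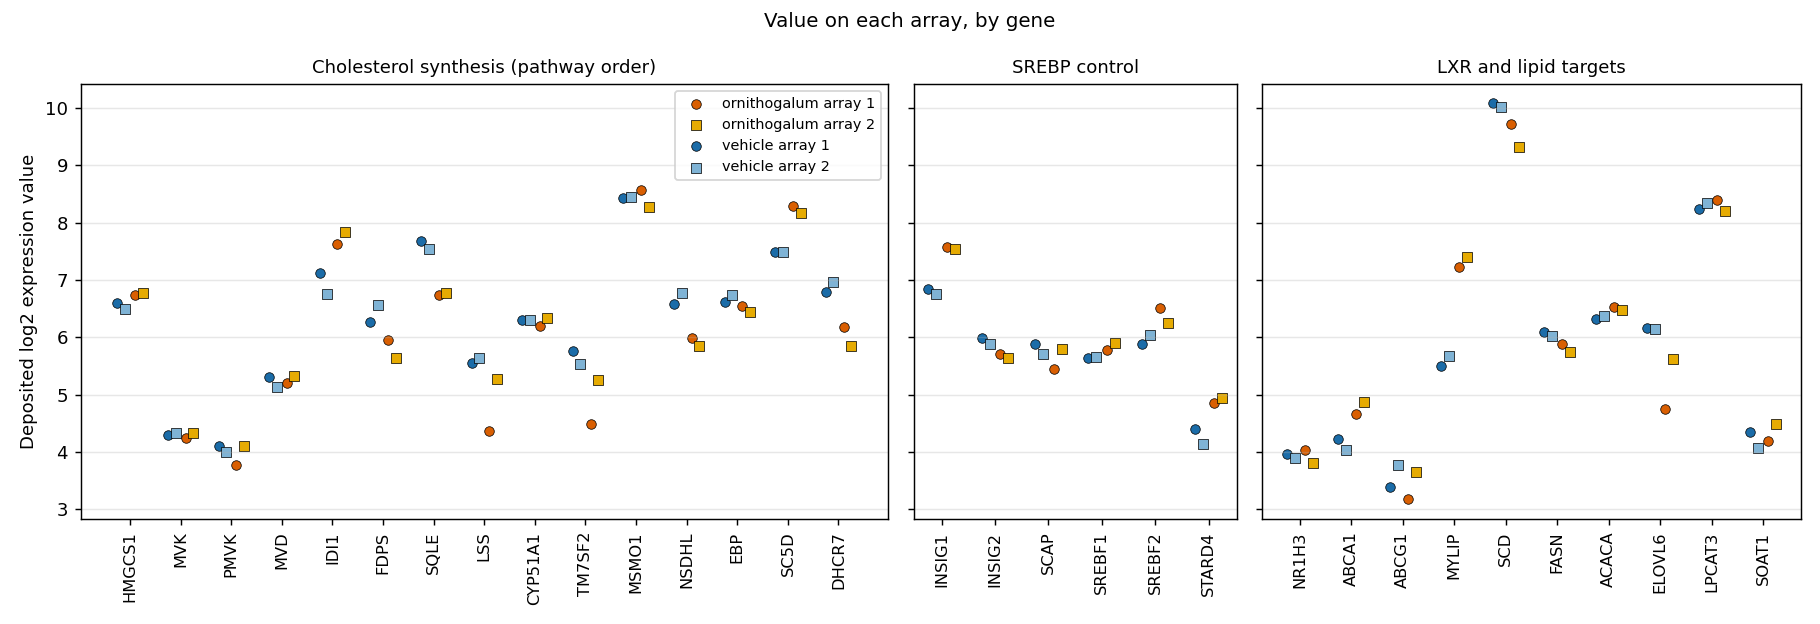
Deposited log2 value of each measured gene on each of the 4 arrays (vertical axis), by gene in pathway order and group (horizontal axis). IDI1, SC5D, INSIG1, STARD4, ABCA1 and MYLIP have both ornithogalum points above both vehicle points, SQLE, NSDHL and DHCR7 have them below, and the ornithogalum points of LSS, TM7SF2 and ELOVL6 lie far from each other. Levels of different genes are not comparable on arrays.

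Of 6 genes of SREBP control, 2 rose and 0 fell, with a median difference of 0.31. At an unadjusted limma p under 0.05 there were 3 higher and 0 lower, against 3004 and 4156 of all 21214 clusters. INSIG1, which retains SCAP and SREBP in the endoplasmic reticulum and is itself an SREBP target, read 7.58 and 7.54 with ornithogalum and 6.84 and 6.75 with vehicle. Its pairs were tight and did not overlap. The rise was 1.69-fold (log2 difference 0.76, SE 0.11, limma adjusted p = 0.013). INSIG2, the related retention protein, read 5.71 and 5.64 with ornithogalum and 5.99 and 5.89 with vehicle. Its values lay in the opposite order, and the difference of -0.27 (95% interval -0.56 to 0.03) did not pass.

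STARD4, a soluble carrier that moves cholesterol between membranes and an SREBP target, read 4.85 and 4.93 with ornithogalum and 4.40 and 4.15 with vehicle. Both treated values were above both vehicle values. It rose 1.53-fold (log2 difference 0.62, SE 0.14), with a limma adjusted p of 0.038.

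The SREBP genes themselves and their escort did not pass. SREBF2, which encodes the SREBP best known for cholesterol genes, read 6.51 and 6.26 with ornithogalum and 5.88 and 6.04 with vehicle. The groups did not overlap, and the difference was 0.43 (95% interval 0.06 to 0.80, limma adjusted p = 0.11). SREBF1, whose products favour fatty acid genes, read 5.77 and 5.90 with ornithogalum and 5.63 and 5.65 with vehicle. Its difference was 0.19 (95% interval -0.10 to 0.49). SCAP read 5.45 and 5.80 with ornithogalum and 5.89 and 5.71 with vehicle, and its groups overlapped (difference -0.18, 95% interval -0.60 to 0.24).

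Of 10 measured LXR receptors and lipid targets, 2 rose and 0 fell, with a median difference of -0.00033. At an unadjusted limma p under 0.05 there were 2 higher and 2 lower, against 3004 and 4156 of all 21214 clusters. The 2 that rose were sterol efflux and uptake targets. MYLIP, an LXR-induced ubiquitin ligase that sends lipoprotein receptors for degradation, read 7.23 and 7.41 with ornithogalum and 5.50 and 5.67 with vehicle. The gap between groups was several times the gap within either, with means of 7.32 ± 0.13 and 5.58 ± 0.12 (SD, n = 2 per group). It rose 3.32-fold (log2 difference 1.73, SE 0.13, limma adjusted p = 0.0036).

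ABCA1, the transporter that exports cholesterol to apolipoprotein acceptors, read 4.67 and 4.88 with ornithogalum and 4.23 and 4.04 with vehicle. No treated value fell within the vehicle range. The rise was 1.55-fold (log2 difference 0.64, SE 0.14, limma adjusted p = 0.037). ABCG1, which exports cholesterol to lipoprotein particles, gave 3.18 and 3.64 against 3.39 and 3.77. These values overlapped, and the difference of -0.17 (95% interval -0.72 to 0.39) did not pass. NR1H3, the gene of LXR-alpha, read 4.03 and 3.82 with ornithogalum and 3.96 and 3.89 with vehicle, a difference of -0.00098 (95% interval -0.33 to 0.33).

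None of the 6 enzymes of fatty acids, phospholipids and sterol esters passed, although 2 had an unadjusted limma p under 0.05. These were SCD and ELOVL6. SCD, which makes monounsaturated fatty acids, read 9.71 and 9.32 with ornithogalum and 10.08 and 10.02 with vehicle (difference -0.53, 95% interval -0.95 to -0.11, limma adjusted p = 0.091). ELOVL6, a fatty acid elongase, read 4.74 and 5.62 with ornithogalum and 6.16 and 6.14 with vehicle. Both treated values lay below the tight vehicle pair, but 0.88 apart, and the difference of -0.97 (95% interval -1.73 to -0.21) had a limma adjusted p of 0.087. FASN, the fatty acid synthase, differed by -0.25 (95% interval -0.55 to 0.06) and ACACA, the carboxylase that supplies it, by 0.15 (95% interval -0.13 to 0.44). LPCAT3, which remodels phospholipids, differed by 0.00032 (95% interval -0.33 to 0.33). SOAT1, which esterifies cholesterol for storage, differed by 0.13 (95% interval -0.30 to 0.56).

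**Figure D3:**
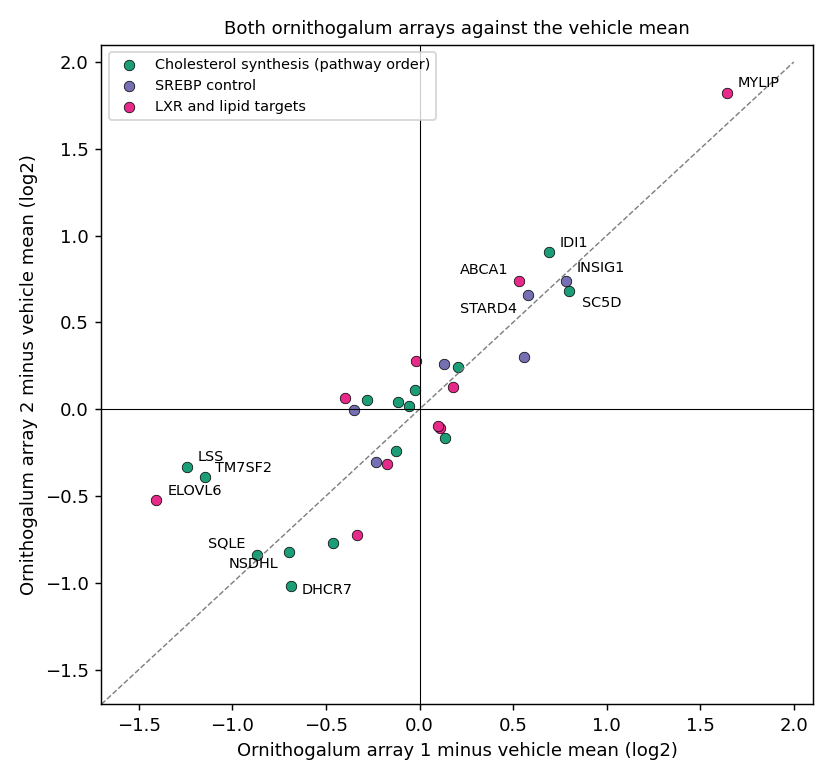
Each measured gene's value on ornithogalum array 1 (horizontal axis) and array 2 (vertical axis) minus the vehicle mean (log2), coloured by group. The axes share the vehicle arrays, so points near the dashed line of equal values are in part a product of that. MYLIP stands apart at the upper right, and LSS, TM7SF2 and ELOVL6 lie far above the line because array 1 read lower than array 2.

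The treated arrays differed from each other more than the vehicle arrays did. Over all tested clusters the pooled SD was 0.26 with ornithogalum and 0.14 with vehicle. In 22 of the 31 genes the gap between ornithogalum arrays exceeded that between vehicle arrays, with medians of 0.20 and 0.11 on the log2 scale. Gaps over 0.5 occurred in 3 genes between ornithogalum arrays (LSS, TM7SF2 and ELOVL6) and in 0 between vehicle arrays, against 14.6% and 2.16% of all tested clusters. Without ornithogalum array 2, limma called LSS (-1.24, adjusted p = 0.0066), TM7SF2 (-1.15, adjusted p = 0.010), ELOVL6 (-1.41, adjusted p = 0.0056) and SREBF2 (0.56, adjusted p = 0.037), and no longer IDI1 (0.69, adjusted p = 0.055) or STARD4 (0.58, adjusted p = 0.051). Without ornithogalum array 1 it called FDPS (-0.77, adjusted p = 0.043), SCD (-0.73, adjusted p = 0.021) and ELOVL6 (-0.53, adjusted p = 0.041), and no longer STARD4 (0.66, adjusted p = 0.051). Calls over all tested clusters also rose in both fits.

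Leaving out either vehicle array ended every call over all tested clusters, not only among these genes. Without vehicle array 1 the adjusted p of the 9 called genes ran from 0.061 to 0.17, and without vehicle array 2 from 0.061 to 0.29. The 9 called genes kept the sign of their differences in both fits. MYLIP had an adjusted p of 0.061 in both cases, with differences of 1.65 and 1.82. With 2 arrays per group, an exact permutation test of a single gene cannot give a two-sided p below 0.333.

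Among the 31 genes the balance of higher and lower calls changed with median centring, while quantile and cyclic loess scaling both left 6 higher and 3 lower. Centring each array on its median moved the median difference of all clusters from 0.04 to 0.20. It gave 2238 higher and 1898 lower clusters in place of 1393 and 2683, and 6 higher and 1 lower of the 31 genes in place of 6 and 3. NSDHL (-0.60, adjusted p = 0.051) and DHCR7 (-0.69, adjusted p = 0.062) lost their calls, while SQLE kept its own (-0.70, adjusted p = 0.021). Under quantile and cyclic loess scaling NSDHL (adjusted p = 0.032 and 0.025) and DHCR7 (adjusted p = 0.037 and 0.031) stayed called. After median centring the median of the synthesis genes turned from -0.11 to 0.05, where quantile and cyclic loess scaling gave -0.10 and -0.09, and that of the LXR and lipid genes from -0.00033 to 0.16, so neither has a settled sign. That of SREBP control went from 0.31 to 0.47. All 6 higher genes remained called under median, quantile and cyclic loess scaling.

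Other genes of the pathway were drawn from 4 lists of 32 genes, of which 29 were measured. Of these, 3 rose and 9 fell, or 41.4% called against the background of 19.2%, with a median difference of -0.20. With brighter clusters only, limma called 4832 of 10607 clusters, and 3 of the further genes rose and 11 fell. These counts are out of fewer than the 29. FADS1, FADS2, ME1, SMPDL3A, VLDLR, SOAT2, CH25H and CYP27A1 were too dim for that fit. After median centring 3 rose and 6 fell, and without either vehicle array none passed.

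Genes that supply carbon to the pathway or are further SREBP targets included 9 that were measured, of which 5 fell and 0 rose. At an unadjusted limma p under 0.05 there were also 5 lower and 0 higher, against 4156 and 3004 of all 21214 clusters. ACLY, the citrate lyase that produces cytosolic acetyl-CoA, read 6.11 and 6.35 with ornithogalum and 7.30 and 7.27 with vehicle, and fell 2.08-fold (limma adjusted p = 0.0082). ACSS2, which makes acetyl-CoA from acetate, read 5.81 and 5.61 against 6.55 and 6.76, and fell 1.93-fold (limma adjusted p = 0.013). GGPS1, which extends farnesyl to geranylgeranyl diphosphate, read 4.46 and 4.44 against 5.42 and 5.45. It fell 1.98-fold (limma adjusted p = 0.0062), and all of these pairs were separate. The other two, named after their values were seen, were the thiolase ACAT2 (1.64-fold lower) and the sterol-related membrane protein gene TMEM97 (1.58-fold lower). TMEM97 lost its call after median centring (adjusted p = 0.062).

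Both genes of the proteases that cleave SREBP in the Golgi fell, among 6 measured genes of SREBP processing and sterol-dependent degradation of which 0 rose. These 2 calls were 33.3% of the list, against 19.2% of all tested clusters. Unadjusted limma p was under 0.05 for 4 lower and 0 higher genes, against 4156 and 3004 of all 21214 clusters. MBTPS2, the site-2 protease, read 4.96 and 4.83 with ornithogalum and 5.79 and 5.69 with vehicle, and fell 1.79-fold (limma adjusted p = 0.011). MBTPS1, the site-1 protease, read 6.80 and 6.98 against 7.38 and 7.44. It fell 1.44-fold (limma adjusted p = 0.046), a call lost after median centring (adjusted p = 0.094) and without ornithogalum array 1 (adjusted p = 0.067).

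Among genes of sterol uptake, lysosomal egress, transport and oxidation, 3 of 10 measured rose and 1 fell. That was 40% called, against 19.2% of all tested clusters (6.57% higher and 12.6% lower). NCEH1, a hydrolase of cholesteryl esters, read 8.52 and 8.33 with ornithogalum and 7.10 and 7.08 with vehicle. It rose 2.53-fold (limma adjusted p = 0.0045). NPC1, which carries cholesterol out of the lysosome, read 8.70 and 8.55 against 7.43 and 7.55 and rose 2.20-fold (limma adjusted p = 0.0060). Its partner NPC2, named after its value was seen, rose 1.44-fold (limma adjusted p = 0.038), a call lost without ornithogalum array 1 (adjusted p = 0.058) and in other settings given with the limits.

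LIPA, the acid lipase that frees cholesterol from esters in the lysosome, went the other way from these. It read 5.11 and 5.29 with ornithogalum and 6.65 and 6.47 with vehicle. The fall was 2.57-fold (log2 difference -1.36, SE 0.13, limma adjusted p = 0.0050). Of 4 measured LXR partners and further targets, PLTP, a phospholipid transfer protein, read 6.39 and 6.31 with ornithogalum and 7.02 and 6.93 with vehicle. It fell 1.54-fold (limma adjusted p = 0.023), a call lost after median centring (adjusted p = 0.073). That 1 call was 25% of the list, against 19.2% of all tested clusters. The other 3 did not pass, among them RXRA, the gene of an LXR partner receptor (difference -0.27, 95% interval -0.74 to 0.20), and SMPDL3A (0.25, 95% interval -0.12 to 0.61).

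**Figure D4:**
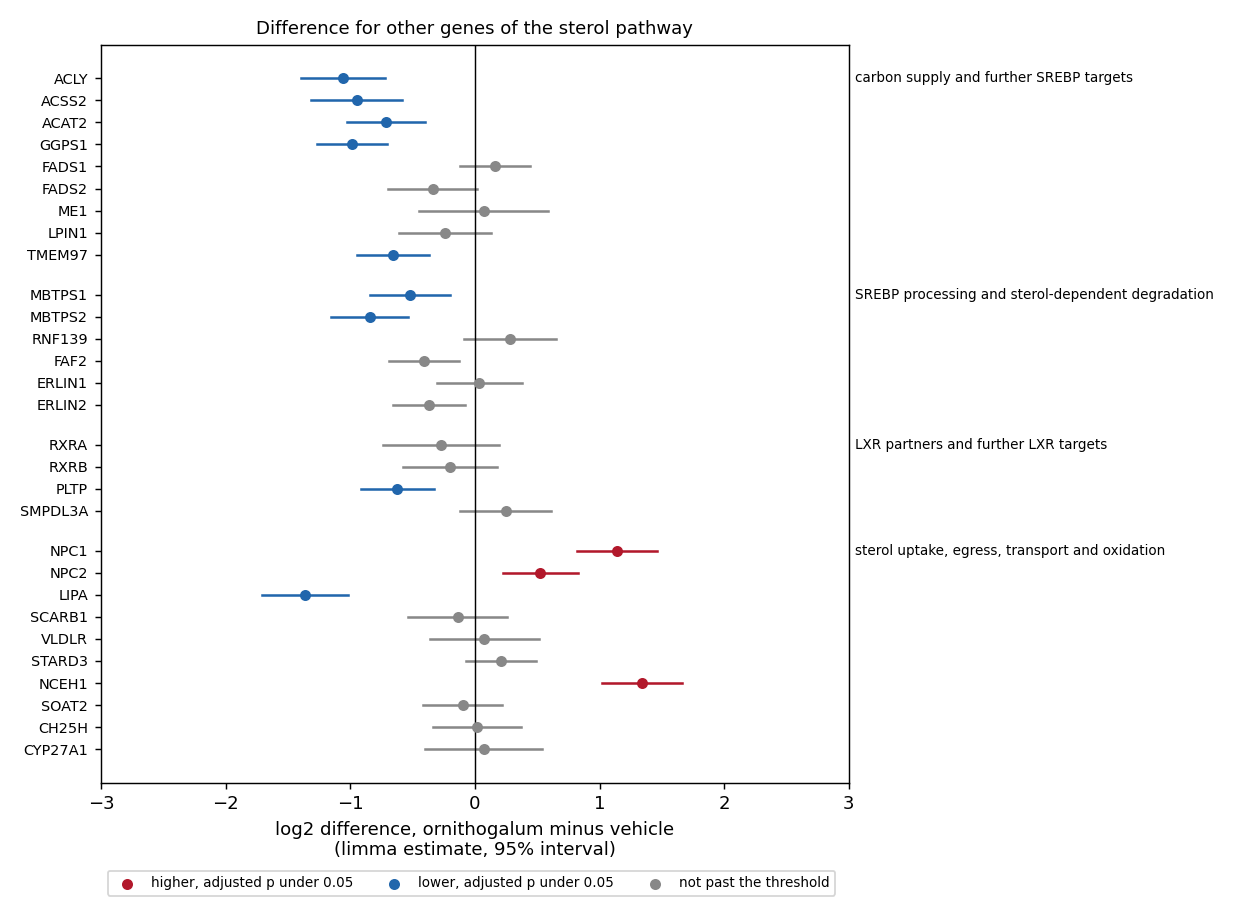
Difference between groups for the 29 measured further genes of the pathway (log2, ornithogalum minus vehicle, point and 95% interval from limma), in their 4 lists. Blue genes fell and red genes rose at an adjusted p under 0.05, and the falls of the carbon supply list and the rises of NCEH1, NPC1 and NPC2 are visible.

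Markers of the labelled cell type and of other cell types were compared between the groups. Of 5 measured epithelial genes, KRT19 fell (log2 difference -1.40, limma adjusted p = 0.0044), and EPCAM, KRT8, KRT18 and CLDN4 did not pass. CLDN4 differed by 0.51, with groups that did not overlap (limma adjusted p = 0.13). Of 5 measured stomach genes, TFF1 fell (-0.60, limma adjusted p = 0.032), and TFF2 (-0.0072), GKN1 (0.04), ATP4A (0.22) and MUC6 did not pass. MUC6 differed by 0.47, also without overlap (limma adjusted p = 0.092). Of the markers of leukocytes, endothelium, fibroblasts and hepatocytes, 10 were measured and 0 passed (0 at an unadjusted limma p under 0.05). Levels of different array probes cannot be compared, so these values do not show which cell types were present, and the part of the markers in the results above was not tested.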

How the data were processed

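The authors deposited log2 values for every transcript cluster on each array. The submitters' processing notes name RMA (robust multi-array average) and Affymetrix Expression Console 1.1. The sources used here give no further settings and no genome build, and the log base was inferred from the values. No depth applies to arrays, and their number limits the precision. Of 33297 clusters, 21214 carry a gene symbol in the platform annotation and were tested, 19460 of them with exactly 1 symbol. Symbols were updated by gene number in RefSeq. No filter on dim clusters was applied.

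The two-sided test was limma's (version 3.58.1, R 4.3.3; lmFit, then eBayes without a trend), adjusted by Benjamini-Hochberg over all tested clusters, at a threshold of 0.05. Errors are the SD of 2 arrays, or the SE and 95% interval of a difference from limma. The code was tested on simulated data. The genes and lists were chosen with earlier results of these data known. The naming rule gave every array's value for called genes among the 31, for the SREBP and LXR regulators and for ABCA1, and named at most 3 genes of smallest p from each further list. FDPS, LSS, TM7SF2, SCD, ELOVL6 and ABCG1 are also given by array, a choice made after their values were seen. Further genes too dim for the fit of brighter clusters are named as well. Alternatives covered scaling, replicate block, left-out arrays, cluster sets, variance model, weights and threshold.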

Additional observations from a re-analysis of the deposited data

How the results depend on the processing

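The limits are the 2 arrays per group and a log2 scale whose centring is unstated. Among 17 alternatives no called gene changed sign. MYLIP was called in 15, SQLE, SC5D and INSIG1 in 14, NSDHL and DHCR7 in 12 and IDI1 in 11. ABCA1 was called in 11 of the 16 that tested it and STARD4 in 9 of 16. Both were too dim for the setting with brighter clusters only, as were ABCG1 and NR1H3. The cause of the changes below was not tested. With every cluster of the table, limma called 2644 in place of 4076, with 2 synthesis, 1 SREBP control, 1 LXR and lipid and 7 further genes, and 3 of the 31 genes higher and 1 lower. At a threshold of 0.01 it called 1443, with 0 synthesis, 0 SREBP control, 1 LXR and lipid (MYLIP) and 5 further genes, and 1 higher and 0 lower. At 0.1, with an intensity trend, and with a trend and robust prior, 4 LXR and lipid genes passed and 6 of the 31 were lower. Brighter clusters only also gave 6 lower. Median centring left 3 synthesis genes and 1 lower gene. With the replicate number as a block, 1 SREBP control and 1 LXR and lipid gene passed and 3 were higher, since IDI1, STARD4 and ABCA1 had adjusted p of 0.051, 0.063 and 0.066. Of the further genes 2 were then higher and 8 lower, without MBTPS1 and NPC2, which also lost their calls with every cluster of the table and at 0.01. The labels do not say that a number marks a shared experiment, and the deviations of same-numbered arrays correlated at -0.059 across clusters. Over the 4 fits that leave out an array, all calls ranged from 0 to 7058, synthesis calls from 0 to 6, SREBP control from 0 to 2, LXR and lipid from 0 to 4, higher from 0 to 5, lower from 0 to 6 and further genes from 0 to 15. The lone array of a group was assumed to vary like the other group.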

Other observations

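Clusters that name a listed gene together with a pseudogene were left out of the comparisons. A cluster shared by HSD17B7, a reductase of the sterol pathway, and HSD17B7P2 read 4.29 and 3.91 with ornithogalum and 4.07 and 4.43 with vehicle, with overlapping groups (difference -0.15, 95% interval -0.65 to 0.35). The pair of clusters shared by FDPS and FDPSP2 gave differences of -0.45 (95% interval -0.82 to -0.07) and -0.54 (95% interval -0.91 to -0.18), the same sign as the cluster of FDPS alone, and limma's adjusted p was 0.099 and 0.059. Whether their probes overlap those of the FDPS cluster was not checked. A dimmer cluster of CYP51A1 differed by 0.18 (95% interval -0.18 to 0.54), against -0.04 for the brighter one, and neither passed.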
